A study of Homo sapiens with 12 samples.

Results

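The sirtuins and the enzymes that feed them with NAD were followed in NS-SV-AC, an established line of human salivary gland acinar cells. The set held 9 genes, chosen by name: the sirtuins SIRT1 to SIRT7, and NAMPT and NMNAT1, which make NAD. They were 9 of the 60609 genes in the deposited annotation, and all 9 passed the filter that left 17185 genes for testing. The series concerns double-stranded RNA of mitochondrial origin in Sjögren's syndrome. Cells received DMSO (the solvent control), RES (resveratrol, a polyphenol of plants) or 2-CM (2'-C-methyladenosine, a modified form of adenosine). Transfection followed, either with poly I:C, which mimics double-stranded RNA, or with the mock control labelled depc. Cells met the compound 24 h ahead of transfection and once more during it, at a labelled dose of 20 that was taken to be micromolar. Poly I:C acted for 14 h, and growth lasted 48 h. The groups were DMSO depc, DMSO poly I:C, 2-CM depc, 2-CM poly I:C, RES depc and RES poly I:C, with 2 libraries each and 12 in all. All came from this line. The labels do not say whether the replicates were separate cultures, so p-values measure only the spread between these libraries, which may be technical.

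Sirtuins remove acyl groups from lysines of proteins and consume NAD in doing so. SIRT1, SIRT6 and SIRT7 are mainly nuclear, SIRT2 is mainly cytosolic, and SIRT3, SIRT4 and SIRT5 are mitochondrial. NAMPT catalyses the rate-limiting step that salvages nicotinamide into NMN, and NMNAT1 turns NMN into NAD in the nucleus. Resveratrol has long been studied as a compound that raises SIRT1 activity. Such activity is not read by RNA abundance, which is what was measured here.

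Estimated depth was 31.2 to 49.4 M reads per library, and 147 to 432 of these fell on SIRT4, the member with the fewest estimated reads. Of 6 epithelial markers, the simple keratins were abundant, at 630 to 1960 TPM (a level scaled for transcript length and library size) for KRT8 and 466 to 1570 TPM for KRT18. The other 4 were at or near 0: KRT5 was listed at 0 in every library, KRT19 reached 0.243 TPM at most, CDH1 lay at 0.189 to 0.596 TPM and EPCAM at 0.0869 to 1.23 TPM. Defining acinar genes went against the label. AQP5, MUC7, STATH and PRB1 were listed at 0 in every library and AMY1A reached 0.0463 TPM at most, so only BHLHA15 and SLC12A2 of 7 acinar markers were above the filter. The leukocyte markers PTPRC and CD3E were listed at 0, and 3 endothelial markers summed to at most 0.258 TPM. The 6 poly I:C response genes summed to 95.4 to 198 TPM in depc libraries and 1490 to 2360 TPM in poly I:C libraries, without overlap. In bulk RNA, fewer cells with a transcript and less of it per cell cannot be told apart.

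All 9 genes were detected in every library. Averaged over the 6 group means, SIRT2 was highest at 34.6 TPM, followed by SIRT7 at 30.3 TPM, SIRT6 at 25.2 TPM, NAMPT at 18.7 TPM and SIRT3 at 16.6 TPM. Lower levels were seen for SIRT4 at 7.89 TPM, SIRT5 at 7.28 TPM, SIRT1 at 6.88 TPM and NMNAT1 at 6.07 TPM. Most neighbours in this order were not separated. SIRT2 exceeded SIRT7 in 8 of 12 libraries, NAMPT exceeded SIRT3 in 4, and SIRT1 exceeded NMNAT1 in 6. SIRT3 exceeded SIRT4 in 12 of 12, and SIRT7 exceeded SIRT6 in 11. NAMPT was the most variable member, from 3.29 to 61.2 TPM, and SIRT3 kept between 11.6 and 21.4 TPM.

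**Figure D1:**
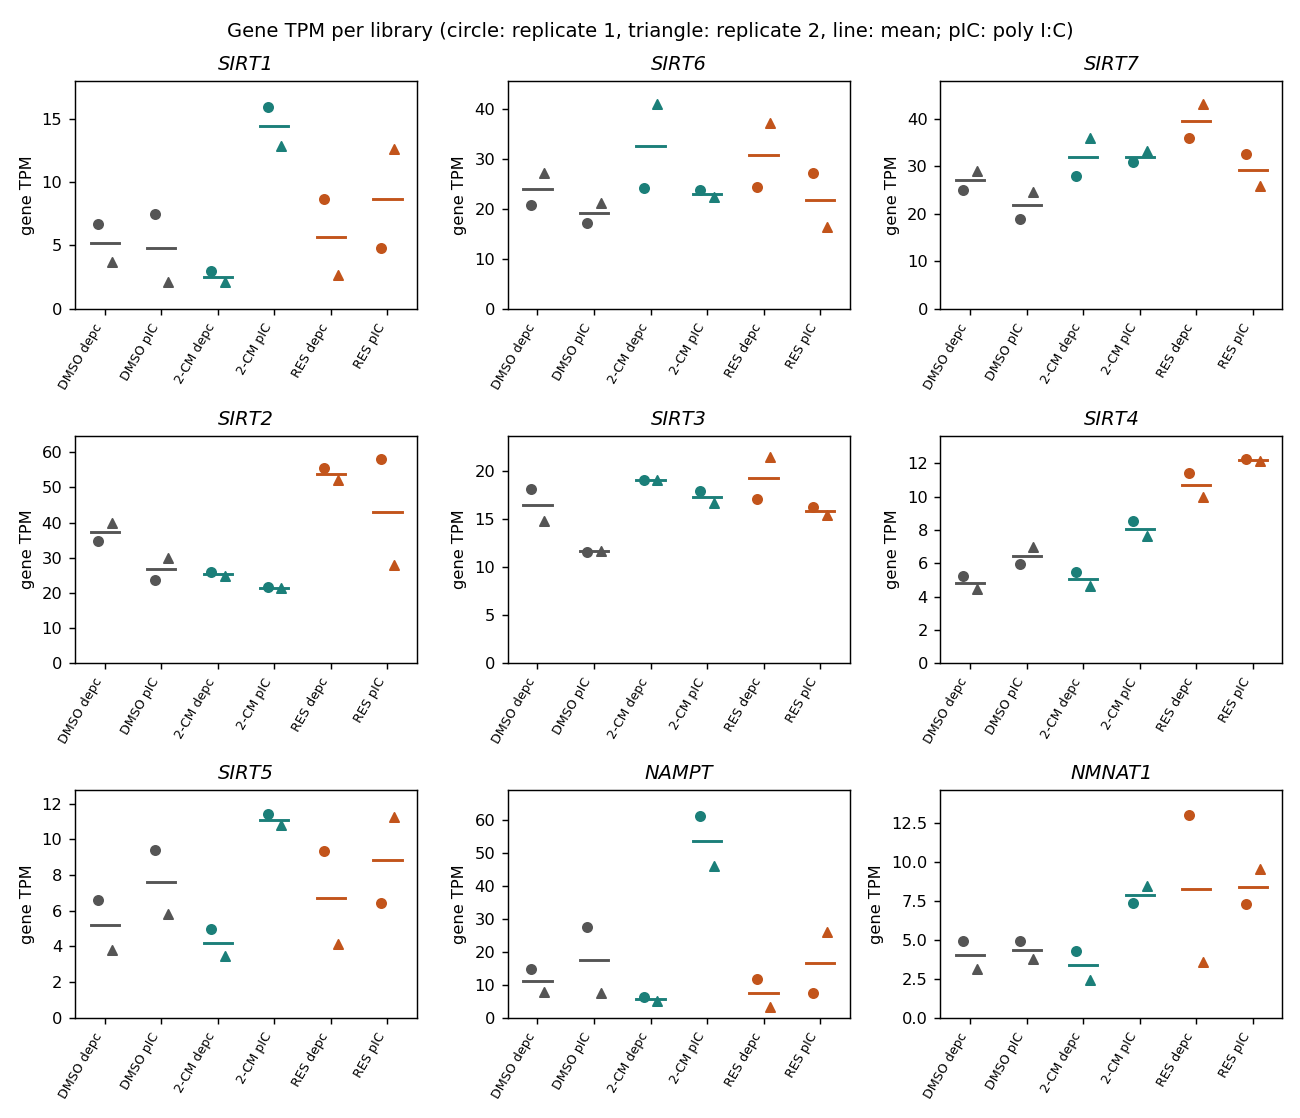
Gene TPM of the 9 genes (vertical axes, each starting at 0) in the 6 groups; circles are replicate 1, triangles replicate 2, lines the group mean of 2 libraries. SIRT4 lies between 9.97 and 12.3 TPM in the 4 RES libraries, above all 8 others. The share of all genes with such a separation was not counted. NAMPT is highest in the 2-CM libraries with poly I:C, at 46.2 and 61.2 TPM.

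The replicates of a group often stood apart, and in most groups the members did so along their base composition. NAMPT is the most AT-rich member, with 37.0% GC in its exons, and SIRT6 the most GC-rich, with 63.6%. The median of all genes tested was 48.4%. On the log2(TPM + 1) scale, replicate 1 minus replicate 2 of NAMPT was 1.75 in DMSO poly I:C and 1.57 in RES depc, but -1.67 in RES poly I:C. For SIRT1, with 41.8% GC, these differences were 1.47, 1.40 and -1.24. SIRT4, with 51.1% GC, differed by at most 0.199 between replicates of any group. Across the 9 genes, which are not independent replicates, the Spearman correlation of this difference with GC content was -0.95 in DMSO depc, -0.90 in DMSO poly I:C, -0.80 in 2-CM depc, -0.45 in 2-CM poly I:C, -0.88 in RES depc and 0.97 in RES poly I:C. Over all genes tested it was -0.68, -0.77, -0.54, -0.43, -0.78 and 0.77 in the same order. RES poly I:C thus ran opposite to the other 5 groups in its replicate numbering. A correction for GC content within each library was therefore set beside the results.

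**Figure D2:**
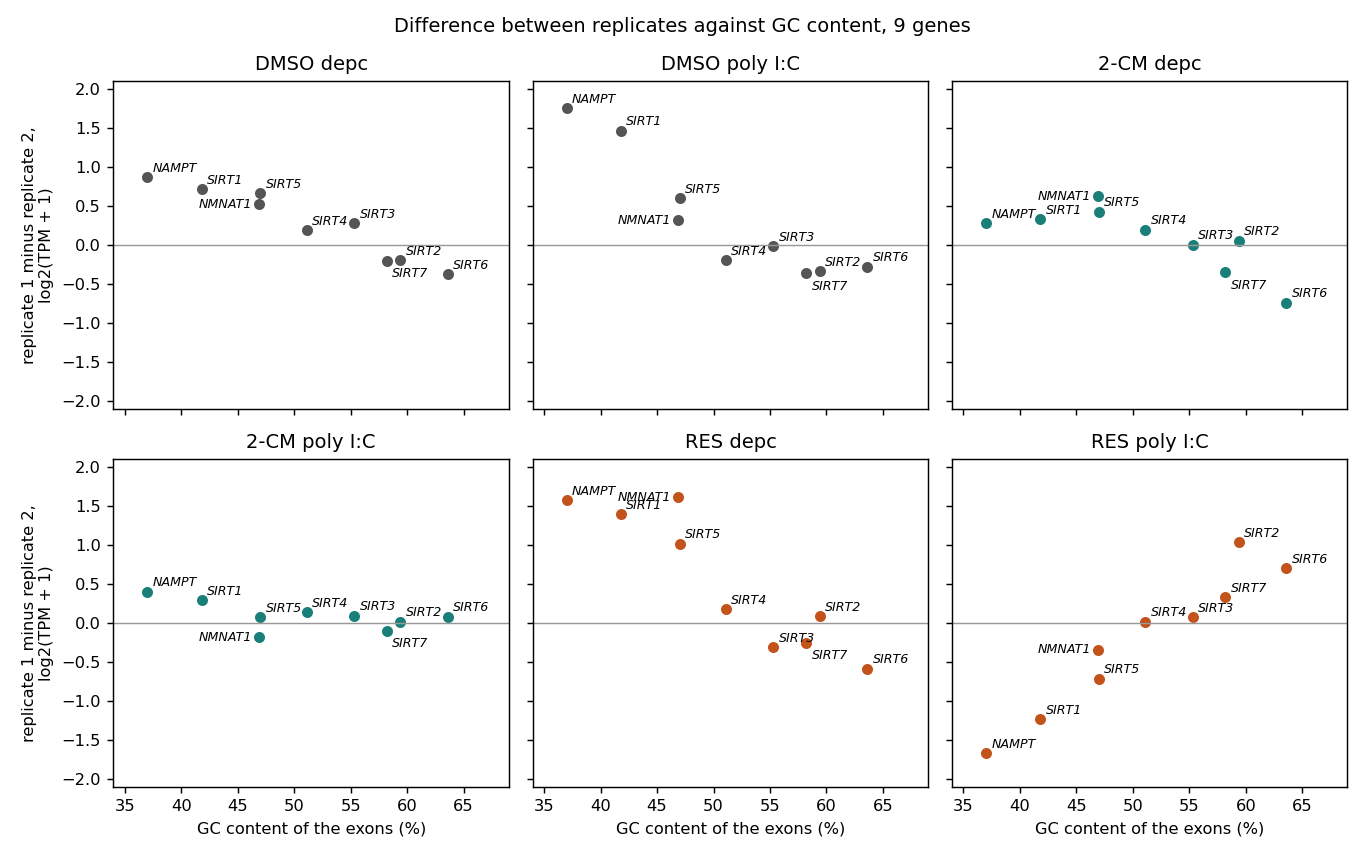
Difference between the replicates of each group on the log2(TPM + 1) scale (vertical) against the GC content of the exons in percent (horizontal); each point is a gene. In DMSO poly I:C, NAMPT (1.75) and SIRT1 (1.47) lie furthest from 0. On the other side SIRT7 (-0.365) lies furthest, followed by SIRT2 (-0.336) and SIRT6 (-0.277). In 2-CM depc SIRT6 (-0.74) and NMNAT1 (0.62) lie furthest. SIRT4 stays within 0.199 of 0 in each group.

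In the main fit, without any correction, SIRT4 was the only member called with RES, and only averaged over the transfections. SIRT4 is a mitochondrial sirtuin known as a lipoamidase and as an ADP-ribosyltransferase that restrains glutamate dehydrogenase. It had 5.22 and 4.45 TPM in DMSO depc and 5.94 and 6.97 TPM in DMSO poly I:C. With RES it had 11.4 and 9.97 TPM in depc and 12.3 and 12.1 TPM in poly I:C. No RES library overlapped a DMSO library, and the 2-CM libraries, at 4.66 to 8.53 TPM, also lay below those of RES. How large a share of all genes was separated like this was not counted. Averaged over the transfections, SIRT4 rose 1.89-fold in TPM + 1 with RES, a log2 fold change of 0.92 on the log2(TPM + 1) scale (SE 0.15, limma, adjusted p = 0.0109). The median of all genes tested rose by 0.21 on this scale. SIRT4 was the only one of the 9 members called at an adjusted p under 0.05. The comparison called 7.91% of all genes, with 6.62% of all genes higher. A positive value was held by 8 of 9. An unadjusted p under 0.05 by limma was seen for 4 members and for 3966 of the 17185 genes tested. The median of the 9 was 0.39.

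Within each transfection the SIRT4 difference was similar in size but did not pass the threshold in the main fit. With depc it was 1.00 (SE 0.21, limma, adjusted p = 0.0619), in a comparison that called 1.03% of genes and 0 members. There 2 members and 2524 of 17185 genes had an unadjusted p under 0.05 by limma. With poly I:C it was 0.83 (SE 0.21, limma, adjusted p = 0.137), where 0.157% of genes and 0 members were called. There 1 member and 2296 of 17185 genes had an unadjusted p under 0.05 by limma. Estimated reads with limma-voom also called 0 members in both. Without the filter on low genes, SIRT4 was called with depc (0.981% of genes) and 0 members with poly I:C (0.107%). The difference between the SIRT4 effects with depc and with poly I:C was -0.17 (SE 0.29, limma, adjusted p = 1). After correction for GC content, SIRT4 was called in all 3 comparisons, at 0.80 with depc (adjusted p = 0.0094, 11.2% of genes called), 0.60 with poly I:C (adjusted p = 0.0407, 6.92%) and 0.70 averaged (adjusted p = 0.00174, 21.3%). With a term for replicate number added to the corrected fit, 0 members were called with poly I:C (5.71% of genes), so SIRT4 lost that call. The averaged call was lost under upper-quartile scaling at 0.61 (adjusted p = 0.256) and median-of-ratios scaling at 0.67 (adjusted p = 0.123), in a fit of the groups compared alone at 0.92 (adjusted p = 0.0827), and without DMSO depc replicate 2 at 0.87 (adjusted p = 0.0604). Over all 25 alternatives the value lay between 0.61 and 1.02. No fibroblast marker was called with RES by limma. In the averaged comparison 1 of the 4 tested had an unadjusted p under 0.05 by limma, as did 3966 of 17185 genes. The 5 on the list, of which COL1A2 was at or near 0, summed to 90.8 and 91.9 TPM in DMSO depc, 64.7 and 66.2 in RES depc, 34.8 and 60.4 in DMSO poly I:C and 36.6 and 47.0 in RES poly I:C. The sums were lower with RES in depc and overlapped in poly I:C, and their part in the SIRT4 result was not tested.

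Most of the SIRT4 signal was assigned to a coding transcript, and the start site in use was not measured. SIRT4 (ENSG00000089163.4, GRCh38, chromosome 12, 120302316 to 120313249, plus strand) has 3 annotated transcripts, and ENST00000202967.4, of 1217 bases, carried 83.5% to 98.0% of its TPM and led in 12 of 12 libraries. This transcript alone had 4.10 to 6.77 TPM in the DMSO libraries and 9.25 to 11.6 TPM in the RES libraries. Because it carries most of the gene's TPM, these values restate the gene-level result. The first base of ENST00000202967.4 directly follows the promoter window shown here, and RefSeq lists another SIRT4 start site further upstream that is not shown. The 250 bases upstream of a RefSeq start site (GRCh38.p14) are printed 5′ to 3′ on the gene's strand for SIRT4, SIRT1 and NAMPT. SIRT4 was called with RES averaged over the transfections, and SIRT1 and NAMPT moved together across libraries. Capitals mark matches to 4 motifs, searched on both strands. The ISRE core, from the element bound by interferon-activated factors, was searched as a pair of GAAA half-sites with 2 bases between them. The E-box, bound by factors such as MYC and CLOCK, was searched as CACGTG. The CCAAT box, bound by NF-Y, was searched as those 5 letters. The GC box, bound by SP1 and its relatives, was searched as GGGCGG, and the capitals also show it where it lies on the other strand.
SIRT4, chr12:120302071-120302320, plus strand: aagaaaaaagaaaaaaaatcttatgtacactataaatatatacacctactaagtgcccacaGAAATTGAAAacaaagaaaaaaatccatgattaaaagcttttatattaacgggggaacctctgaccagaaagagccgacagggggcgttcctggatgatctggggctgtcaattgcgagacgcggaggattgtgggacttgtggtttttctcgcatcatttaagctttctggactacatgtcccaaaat
SIRT1, chr10:67884406-67884655, plus strand: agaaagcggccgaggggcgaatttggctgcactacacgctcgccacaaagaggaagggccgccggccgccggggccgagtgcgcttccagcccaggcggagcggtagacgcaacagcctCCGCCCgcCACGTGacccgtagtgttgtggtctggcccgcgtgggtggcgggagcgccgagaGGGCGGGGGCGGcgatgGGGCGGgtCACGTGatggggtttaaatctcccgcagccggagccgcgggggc
NAMPT, chr7:106284984-106285233, minus strand: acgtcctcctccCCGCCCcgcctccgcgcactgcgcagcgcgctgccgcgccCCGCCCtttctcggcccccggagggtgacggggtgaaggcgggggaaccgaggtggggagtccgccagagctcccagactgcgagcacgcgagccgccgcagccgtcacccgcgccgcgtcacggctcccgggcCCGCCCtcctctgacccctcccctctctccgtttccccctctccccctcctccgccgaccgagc
The 3 windows were unlike in composition. That of SIRT4 had 39.6% GC, and 12.1% of all 35097 promoter windows had less. The SIRT1 window had 72% and the NAMPT window 77.2%, against a median of 58.0%. The SIRT4 window shown held an ISRE core beginning 189 bases before the start and none of the other motifs. The SIRT4 window not shown held no match to any of the motifs. Of all windows 3.02% hold that core, a share taken over windows of any GC content. SIRT1 held E-boxes beginning 123 and 44 bases before its start and 4 GC boxes, of which 2 adjoin each other without overlap. At least 1 E-box is present in 6.34% of windows and 2 or more in 0.53%. NAMPT held 3 GC boxes, a motif in 42.6% of windows, and CCAAT boxes are in 32%. These matches describe letters in the windows, and binding was not measured.

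Among the nuclear sirtuins, none was called with RES on TPM without a replicate block. SIRT1 deacetylates histones and factors such as p53 and is the sirtuin most often linked to resveratrol. Its levels were 6.65 and 3.66 TPM in DMSO depc and 8.68 and 2.68 TPM in RES depc. In poly I:C they were 7.52 and 2.08 TPM with DMSO and 4.77 and 12.6 TPM with RES. The ranges overlapped throughout, and the averaged difference was 0.39 (SE 0.45, limma, adjusted p = 0.66), so a change in SIRT1 RNA was not detectable against this spread. SIRT6, which acts on histone H3 and in DNA repair, had 17.2 to 27.1 TPM in DMSO libraries and 16.3 to 37.1 TPM in RES libraries, a difference of 0.24 (SE 0.24, limma, adjusted p = 0.624) that was -0.09 and -0.03 under the upper-quartile and median-of-ratios scalings. SIRT7, a nucleolar sirtuin tied to ribosomal RNA transcription, had 18.9 to 29.1 TPM with DMSO and 25.8 to 43.2 TPM with RES, a difference of 0.47 (SE 0.16, limma, adjusted p = 0.114). The replicate block with the RES poly I:C numbers crossed, chosen after seeing the data, called SIRT7 higher averaged (limma, adjusted p = 0.01, 21.6% of genes called) and with depc (8.40% of genes called). The crossing followed the replicate deviations of these same data, which the block then removes, so these calls are no independent support. SIRT7 shares 105 exon bases with MAFG on the same strand, and reads there could have been assigned to either.

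**Figure D3:**
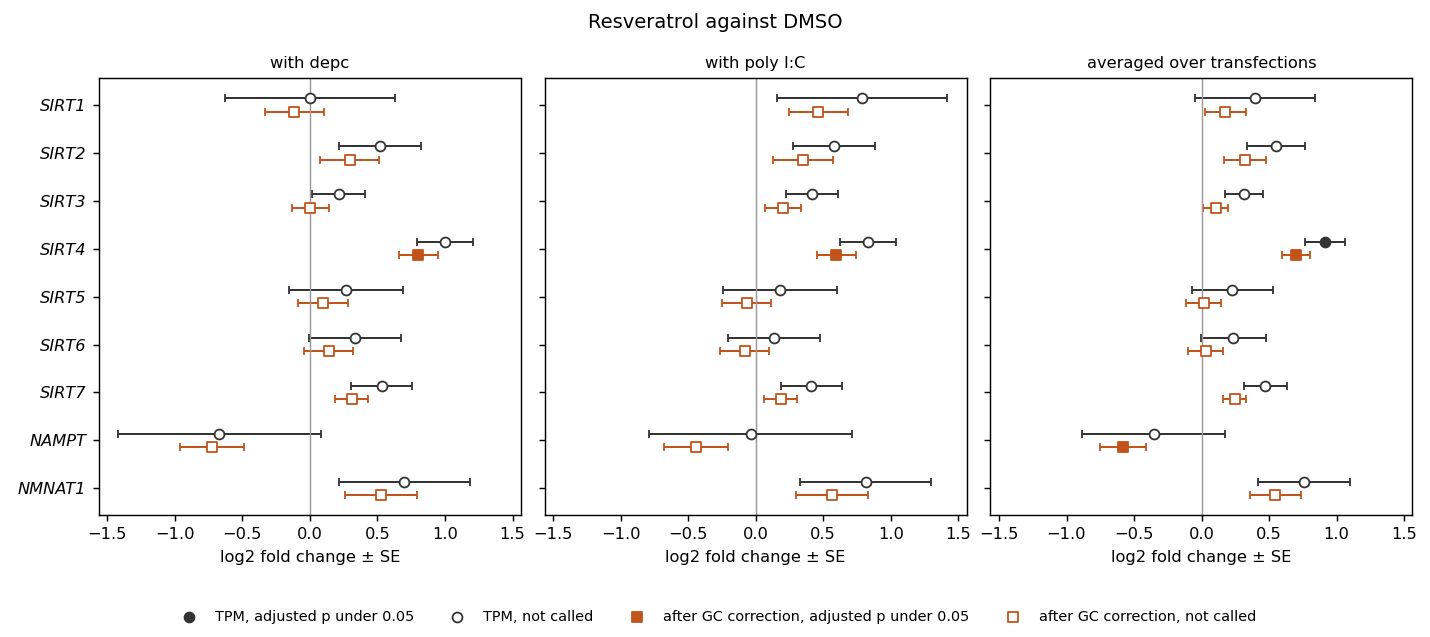
Log2 fold change of RES against DMSO ± SE (horizontal) for the 9 genes with depc, with poly I:C and averaged, from 4 or 8 libraries; circles are TPM, squares are values after GC correction, and filled symbols have an adjusted p under 0.05. SIRT4 lies to the right in each panel and is filled at 0.92 in the averaged panel, and NAMPT is filled at -0.58 only after GC correction.

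SIRT2, a cytosolic deacetylase known to act on tubulin, varied in transcript make-up as well as in sum. Its gene level was 34.8 and 39.9 TPM in DMSO depc, 23.6 and 30.0 TPM in DMSO poly I:C, 55.5 and 52.2 TPM in RES depc, and 58.1 and 27.9 TPM in RES poly I:C. The averaged difference with RES was 0.55 (SE 0.22, limma, adjusted p = 0.167), which was not called. Without RES poly I:C replicate 2 it was 0.81 and called (limma, adjusted p = 0.0272), and without RES poly I:C replicate 1 it was 0.29. With only protein-coding transcripts summed it was -1.24 (adjusted p = 0.565). The direction for SIRT2 therefore depended on whether transcripts outside the coding class were summed. On average the most abundant of these was ENST00000462654.5, of the retained-intron class, and no fit left it out alone. That transcript was estimated at 0.621 to 1.85 TPM in the 4 DMSO libraries, at 17.0 and 21.4 TPM in 2-CM depc, at 12 and 46 TPM in RES depc, and at 0 and 19.6 TPM in RES poly I:C. In 2-CM poly I:C it had 0.635 and 2.07 TPM. It carried from 0% to 88.2% of SIRT2. Replicates of RES depc and RES poly I:C disagreed on it, so the share of coding SIRT2 RNA under RES was not settled by these libraries. StringTie divides reads among 19 overlapping SIRT2 transcripts, and how far this division set the estimates was not tested.

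**Figure D4:**
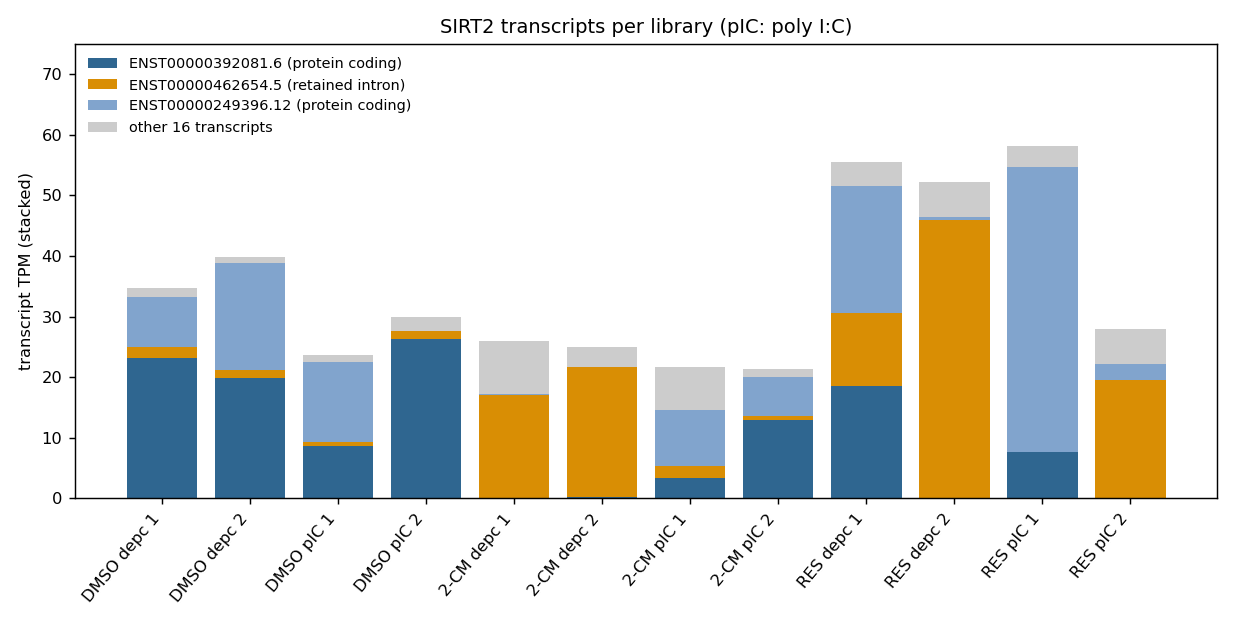
Stacked TPM (vertical, from 0) of SIRT2 transcripts in each of the 12 libraries; colours are the 3 most abundant transcripts and grey the other 16. The retained-intron transcript takes most of SIRT2 in both 2-CM depc libraries, in RES depc 2 and in RES poly I:C 2, and little of it in the DMSO libraries.

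The other mitochondrial sirtuins were not called with RES. SIRT3, the main deacetylase of mitochondrial proteins, had 18.1 and 14.8 TPM in DMSO depc, 11.6 and 11.7 TPM in DMSO poly I:C, 17.0 and 21.4 TPM in RES depc and 16.3 and 15.4 TPM in RES poly I:C. The averaged difference of SIRT3 was 0.31 (SE 0.14, limma, adjusted p = 0.214), and it was 0.00 under upper-quartile scaling. SIRT5, which removes succinyl and malonyl groups, had 3.80 to 9.39 TPM with DMSO and 4.12 to 11.3 TPM with RES. Its difference was 0.23 (SE 0.30, limma, adjusted p = 0.716), and -0.08 and -0.02 under the upper-quartile and median-of-ratios scalings. The difference between SIRT4 and these genes was not tested.

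For the NAD enzymes, RES gave no call on TPM with all libraries. NMNAT1 had 4.93, 3.12, 4.93 and 3.77 TPM in the DMSO libraries, 13.0 and 3.60 TPM in RES depc and 7.30 and 9.54 TPM in RES poly I:C. Its averaged difference was 0.76 (SE 0.34, limma, adjusted p = 0.23), and the RES depc replicates were the furthest apart of its 6 pairs. Without RES depc replicate 2 the NMNAT1 difference was 1.16 and called (limma, adjusted p = 0.0316), and without RES depc replicate 1 it was 0.35. NAMPT had 14.9 and 7.73 TPM in DMSO depc, 27.6 and 7.50 TPM in DMSO poly I:C, 11.8 and 3.29 TPM in RES depc and 7.50 and 26.1 TPM in RES poly I:C. The ranges overlapped, and the averaged difference was -0.36 (SE 0.53, limma, adjusted p = 0.752). After GC correction NAMPT was called lower with RES, at -0.58 (SE 0.17, limma, adjusted p = 0.0369). Without single libraries the uncorrected value ran from -0.79 to 0.08.

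Poly I:C was then compared with depc under each compound. Under 2-CM, NAMPT, SIRT1, SIRT5 and SIRT4 were called higher and no member lower, 4 of 9 members in a comparison that called 49.3% of all genes, with 37.5% of all genes higher. NAMPT had 6.31 and 5.03 TPM in 2-CM depc and 61.2 and 46.2 TPM with poly I:C. This was a rise of 3.03 on the log2(TPM + 1) scale (SE 0.75, limma, adjusted p = 0.0276), or 8.16-fold in TPM + 1. SIRT1 went from 2.96 and 2.14 TPM to 15.9 and 12.8 TPM, or 2.12 (SE 0.63, limma, adjusted p = 0.0316). SIRT5 went from 4.98 and 3.45 TPM to 11.4 and 10.8 TPM, or 1.23 (SE 0.42, limma, adjusted p = 0.0413). For each of these 3 genes the 2-CM poly I:C libraries lay above the 2-CM depc libraries, as they did for SIRT4 and NMNAT1. Those of SIRT2, SIRT3 and SIRT6 lay below without overlap, so separation was not particular to the called genes. The share of all genes separated in this way was not counted. The GC content of NAMPT, SIRT1 and SIRT5 is below the median of all genes.

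SIRT4 rose least of the called members, from 5.48 and 4.66 TPM to 8.53 and 7.65 TPM, or 0.58 (SE 0.21, limma, adjusted p = 0.0446). The median of all genes rose by 0.61 in the same comparison, so SIRT4 moved with the bulk of genes and its value was -0.44 under upper-quartile and -0.15 under median-of-ratios scaling. Upper-quartile scaling called NAMPT and SIRT1 higher and SIRT3 lower, in a fit that called 41.8% of genes. NMNAT1 went from 4.30 and 2.45 TPM to 7.36 and 8.48 TPM, or 1.06 (SE 0.49, limma, adjusted p = 0.0919), and was not called. Of 25 alternatives, 4 called NMNAT1 here. After GC correction, NAMPT alone of the 9 members was called, at 1.16 (SE 0.24, limma, adjusted p = 0.0113), where 30.0% of genes were called. The corrected value of SIRT1 was 0.64 (limma, adjusted p = 0.0517). That of SIRT5 was 0.40 (limma, adjusted p = 0.119) and that of SIRT4 0.24 (limma, adjusted p = 0.224). The members' calls did not hold without any single 2-CM library, which leaves a group of 1, and nor did those of the list genes below. Over the fits without single libraries, the value ran from 2.83 to 3.23 for NAMPT and from 1.95 to 2.28 for SIRT1. It ran from 1.02 to 1.44 for SIRT5 and from 0.49 to 0.68 for SIRT4. SIRT5 and SIRT4 also lost their calls without either DMSO depc library, and SIRT4 lost its call in most such fits. Without the filter on low genes, 0 of 9 members were called under 2-CM, among 1.61% of 40364 genes, with limma's adjusted p at 0.068 for NAMPT, 0.0804 for SIRT1, 0.0959 for SIRT5 and 0.0697 for SIRT4. Markers of other cell types changed in the same comparison. Of the fibroblast markers, LUM went from 3.73 ± 0.423 to 30.6 ± 2.6 TPM (SD, n = 2) and DCN from 4.19 ± 0.538 to 17.9 ± 0.124 TPM, both called higher, and COL1A1 from 92.6 ± 10.8 to 41.4 ± 0.329 TPM, called lower. The 5 fibroblast markers summed to 103 and 117 TPM under 2-CM with depc, against 98.4 and 94.4 TPM once poly I:C was given, where COL1A2 was at or near 0. Of the epithelial markers, KRT8 and KRT18 were called lower, from 1860 to 836 and from 1510 to 603 TPM, and EPCAM, at 1.23 TPM at most, was called higher. The 6 summed to 3210 and 3530 TPM with depc, and with poly I:C to 1490 and 1390 TPM. The part of these markers in the members' changes was not tested.

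Under DMSO and under RES, poly I:C changed no member past the threshold. With limma, 0 of 9 were called under DMSO (4.08% of all genes) and 0 of 9 under RES (0.442% of all genes). Limma-voom on estimated reads likewise called 0. Under DMSO 1 member and 3394 of 17185 genes had an unadjusted p under 0.05 by limma. Under RES it was 0 members and 2409 genes. NAMPT differed by 0.40 under DMSO (SE 0.75, limma, adjusted p = 0.852) and by 1.04 under RES (SE 0.75, limma, adjusted p = 0.606). SIRT1 differed by -0.22 (SE 0.63, limma, adjusted p = 0.916) and 0.57 (SE 0.63, limma, adjusted p = 0.745). The sign of the SIRT1 value under both, and of NAMPT under DMSO, changed when single libraries were left out.

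**Figure D5:**
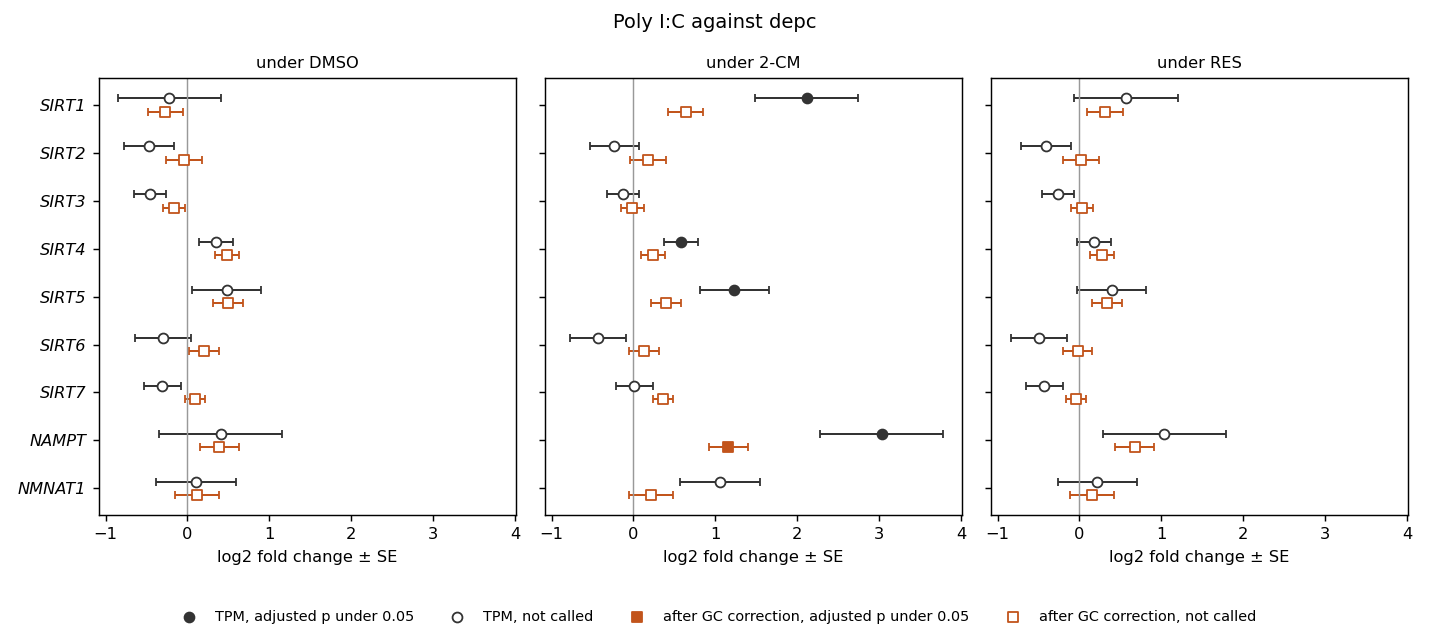
Log2 fold change of poly I:C against depc ± SE (horizontal) for the 9 genes under DMSO, 2-CM and RES, from 4 libraries each; circles are TPM, squares are values after GC correction, filled where the adjusted p is under 0.05. Filled circles appear under 2-CM alone (NAMPT, SIRT1, SIRT5 and SIRT4), and NAMPT alone keeps a filled symbol after GC correction.

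The difference of responses was tested directly and no member passed. For 2-CM minus DMSO it was 2.34 for SIRT1 (SE 0.89, limma, adjusted p = 0.161) and 2.63 for NAMPT (SE 1.06, limma, adjusted p = 0.162). There 0 of 9 members and 0.0116% of genes were called, and 2 members and 5097 of 17185 genes had an unadjusted p under 0.05 by limma. For RES minus DMSO, 0 of 9 members and 0.00% of genes were called, and 0 members and 293 genes had an unadjusted p under 0.05. In this fit the calls under 2-CM are therefore not shown to differ from DMSO. A replicate block with the numbers of RES poly I:C crossed, chosen after seeing the data, changed this count: SIRT1 and NAMPT were called for 2-CM minus DMSO, 2 of 9 members in a fit that called 42.5% of all genes for that difference. That block removes the same replicate deviations from which the crossing was chosen, so its p-values cannot be taken as a test. Set directly against DMSO, 2-CM called 0 of 9 members with depc (0.0349% of genes) and 0 of 9 with poly I:C (0.105% of genes). Limma-voom also called 0. With depc 0 members and 831 of 17185 genes had an unadjusted p under 0.05 by limma. With poly I:C it was 4 members and 5884 genes. The crossed block called 4 of 9 with poly I:C, among 50.7% of genes.

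NAMPT has a near-identical copy, the pseudogene NAMPTP1, and the counting could split reads between the pair. NAMPTP1 had 1.16 ± 0.415 TPM (SD, n = 2) in 2-CM depc and 11.1 ± 2.01 TPM in 2-CM poly I:C, alongside 5.67 ± 0.906 and 53.7 ± 10.6 TPM for NAMPT. Gene and copy moved the same way, and the copy stayed below the gene. NAMPT also shares 786 exon bases with AC007032.1 on the opposite strand, which had 0.523 to 2.18 TPM. Overlaps of the other members were shorter or with genes at or near 0, and strand use in counting is not given in the sources used here.

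In the authors' deposited tables, which cover poly I:C against depc only, 7 of 9 members had an adjusted p under 0.05 under 2-CM, where 46.4% of genes did. The authors' deposited table gave NAMPT 2.46 and SIRT1 1.64 on the log2 scale, with SIRT5 at 0.60 (adjusted p = 0.0283). It also gave lower levels for SIRT6 at -1.49, SIRT2 at -1.40, SIRT3 at -1.04 and SIRT7 at -0.81, genes that were not called on TPM. For SIRT4 and NMNAT1 the authors' deposited table held -0.16 (adjusted p = 0.772) and 0.38 (adjusted p = 0.331). NAMPT, SIRT1 and SIRT5 were thus higher in both sources, which rest on the same libraries, so this is no independent support. The authors' values come from counts scaled between libraries, and those here from TPM. The part of this scaling in the differences between the sources was not tested. On TPM, SIRT6, SIRT2 and SIRT3 had values of -0.43, -0.23 and -0.13 that were not called, and SIRT7 had 0.01. Under DMSO and RES the authors' deposited tables held 0 of 9 members, with 1.25% and 0.363% of genes, respectively.

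Other genes of the pathway were taken from 5 lists. Of 19 genes of NAD synthesis and transport, 13 were tested, and with RES averaged over transfections 1 was called higher and 1 lower; their median was 0.32 against 0.21 for all genes. Over the 5 lists 3 of 50 tested genes were called, or 6%, against 7.91% of all genes. HAAO, of the kynurenine route to NAD, rose from 2.88 ± 0.935 to 6.42 ± 2.58 TPM in depc and from 1.46 ± 0.124 to 3.45 ± 0.513 TPM in poly I:C (SD, n = 2), or 0.88 averaged (SE 0.22, limma, adjusted p = 0.0462). NNMT, which methylates nicotinamide and so withdraws it from salvage, fell from 112 ± 2.13 to 89.0 ± 8.77 TPM and from 194 ± 29.8 to 103 ± 17.6 TPM, or -0.62 (SE 0.13, limma, adjusted p = 0.0242). Of 7 other NAD-consuming enzymes 5 were tested and 1 rose: SARM1, an NAD hydrolase of axon degeneration, at 0.98 (SE 0.20, limma, adjusted p = 0.0225). The calls of these 3 genes were lost under both other scalings, with directions kept. Of all alternatives run, 18 of 24 ended the call of HAAO, 11 of 24 that of SARM1 and 10 of 25 that of NNMT. Among these were 11, 6 and 6 of the 12 that left out a single library, with adjusted p up to 0.161, 0.1 and 0.102 by limma. Of the sirtuin regulators and substrates 14 of 14 were tested, of AMPK 7 of 8 and of the zinc-dependent deacetylases 11 of 11. None was called by limma with RES averaged over both transfections. An unadjusted p under 0.05 was held by 2, 0 and 2 of them, and by 3966 of 17185 genes. The medians of these lists were 0.15, 0.25 and 0.28.

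Under 2-CM, poly I:C called genes of every list in both directions except the NAD-consuming enzymes, in which 2 rose and 0 fell. NAD synthesis had 4 higher and 3 lower, sirtuin regulators and substrates 2 and 3, AMPK 3 and 1, and zinc-dependent deacetylases 1 and 2. Together 21 of 50 tested genes were called, or 42%, against 49.3% of all genes. These calls rested on all 4 libraries of 2-CM: without any 1 of them the named genes lost their calls, with limma's adjusted p up to 0.153 to 0.185, and the count over all genes fell from 8475 to as few as 37. TNKS2, PARP2, GLUD1 and SOD2 also lost theirs without either DMSO depc library. The largest were PRKAA1, a catalytic subunit of AMPK, at 2.50, NADK2, the mitochondrial NAD kinase, at 2.45, the tankyrase TNKS2 at 2.22, and HDAC2 at 1.99. HDAC11 fell by 1.13, RPS19BP1, an activator of SIRT1, by 1.11, NMRK2, a nicotinamide riboside kinase, by 0.98, HDAC5 by 0.91, IDH2 by 0.90 and STK11, the kinase upstream of AMPK, by 0.68. The others named by the rule, PRKAG2, GLUD1, SOD2, PRKAB2, PARP2, NMRK1 and AFMID, rose by 1.78, 1.68, 1.68, 1.5, 1.37, 1.36 and 1.05. These 11 that rose had 36.5% to 52.3% GC and the 6 that fell 54.5% to 65.8%. After GC correction 11 of these 17 lost the call. PRKAB2 was then at -0.03 and NMRK1 at -0.20, and the values of PRKAA1, TNKS2 and HDAC2 were 0.61, 0.70 and 0.10. AFMID, NADK2, HDAC11, HDAC5, IDH2 and RPS19BP1 were still called. Without the filter on low genes, HDAC11 alone of the 17 was called. Under DMSO a single list gene was called, EP300, an acetyltransferase, which fell from 15.4 ± 3.34 to 5.46 ± 1.77 TPM (SD, n = 2), or -1.35 (SE 0.31, limma, adjusted p = 0.0477), in a comparison that called 4.08% of all genes. The EP300 call was lost in 15 of 25 alternatives, among them 10 of the 12 without a single library, where limma's adjusted p reached 0.265.

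Over the 12 libraries, members fell into sets that varied together. As a description, SIRT1 had a Pearson correlation of log2(TPM + 1) of 0.92 with SIRT5, 0.92 with NAMPT and 0.80 with NMNAT1. SIRT6 and SIRT7 had 0.80, SIRT3 and SIRT7 0.77, and SIRT5 and SIRT6 -0.74. The points share libraries and base composition: NAMPT, SIRT1, NMNAT1 and SIRT5 have 37.0% to 47.0% GC, and SIRT3, SIRT7, SIRT2 and SIRT6 have 55.3% to 63.6%. The genes most like SIRT1 among 10182 with a mean of 5 TPM or more were FBXO28 (0.997), PHF6 (0.997) and NEDD1 (0.996), with 36.4% to 38.4% GC, and 2950 genes exceeded 0.9. Those most like NAMPT were CBX3 (0.997), BUB1 (0.994) and MTRF1L (0.994), and 1968 exceeded 0.9.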

How the data were processed

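Polyadenylated RNA of 12 libraries was read on a stranded kit. Abundance came from StringTie 2.0.4 on GENCODE 32, per the file headers. The submitters' processing notes name HISAT2 2.1.0, and list DESeq2. The deposited files give TPM, FPKM and coverage per transcript; strand use in counting is not stated. The authors' deposited tables hold a mean normalised signal, log2 fold changes with errors, a test score and p-values for poly I:C against depc. No counts were used, so no count test was run.

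Transcript TPM was summed to genes (Python 3.11.15). With limma 3.58.1 in R 4.3.3, 6 group means were fitted to log2(TPM + 1) for 17185 genes with 1 TPM or more in at least 2 libraries, with 6 residual degrees of freedom. Fold changes on this scale understate low genes. In each of 10 contrasts, p-values were adjusted by Benjamini-Hochberg and genes called under 0.05. The script was tested on simulated data. GC correction subtracted, within each library, a lowess curve (span 0.3) of the deviation from the mean of all libraries. Estimated reads are coverage times length over 101 bases. Promoters are from RefSeq, with 8 of 9 members matched. Named genes were the 9 members, up to 4 called genes per list and contrast by size, and the 3 most alike to SIRT1 and NAMPT. Members and lists were chosen with earlier results of these data known.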

Additional observations from a re-analysis of the deposited data

How the results depend on the processing

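For 44 single log2 values, 25 alternatives gave 836 results on the same side of the threshold and in the same direction, 220 that lost the call, 17 that gained it and 23 of changed sign. The number of members called with RES averaged over transfections was 1 (7.91% of all genes). It was 0 under upper-quartile scaling (1.53%), median-of-ratios scaling and a fit of only the groups compared, and 2 with GC correction (21.3%). With RES and depc the number was 0 (1.03%), and 1 without a filter (0.981%) and with GC correction (11.2%). With RES and poly I:C it was 0 (0.157%), and 1 with GC correction (6.92%). Under 2-CM poly I:C called 4 (49.3%), but 0 without a filter (1.61%) and 1 with GC correction (30.0%). For RES averaged and for 2-CM the number also changed without single libraries, as did the count over all genes. Values of changed sign, none called, were for RES averaged SIRT3 0.00, SIRT5 -0.076 and SIRT6 -0.087 (upper-quartile), SIRT5 -0.02 and SIRT6 -0.029 (median-of-ratios), and SIRT2 -1.24 (protein-coding transcripts only). For poly I:C under 2-CM they were SIRT4 -0.44 and AFMID -0.088 (upper-quartile), SIRT4 -0.15 (median-of-ratios), and PRKAB2 -0.027 and NMRK1 -0.20 (GC correction, with and without the replicate block). Without single libraries, RES averaged gave -0.79 to 0.083 for NAMPT and -0.028 to 0.48 for SIRT5. Poly I:C gave -0.95 to 0.51 for SIRT1 and -0.47 to 1.28 for NAMPT under DMSO, and -0.13 to 1.27 for SIRT1 under RES. The cause of these changes was not tested. Under upper-quartile scaling the median of all genes moved from 0.21 to -0.05 for RES averaged and from 0.61 to -0.27 for poly I:C under 2-CM.

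Same-numbered libraries were checked for pairing: the 10 correlations of their deviations among the 5 groups other than RES poly I:C ran from 0.15 to 0.76, and the 5 with RES poly I:C from -0.80 to -0.31. Libraries of a number thus deviated together, with RES poly I:C in the opposite order. The labels do not say what a number marks, and the numbers as given do not pair all groups. With the replicate block the numbers of members called were 1 for RES averaged and 4 for poly I:C under 2-CM, as without it (6.67% and 51.8% of all genes). The replicate block with GC correction called 2 for RES averaged (20.3% of genes), 1 for RES with depc (10.3%), 0 for RES with poly I:C (5.71%) and 2 for poly I:C under 2-CM (29.7%). A replicate block with the RES poly I:C numbers crossed, chosen after seeing the data, called 2 for RES averaged (21.6%), 2 for RES with depc (8.40%), 1 for RES with poly I:C (5.66%), 5 for poly I:C under 2-CM (68.2%), 2 for the 2-CM difference of response (42.5%) and 4 for 2-CM with poly I:C (50.7%). The crossing was chosen from the deviations that this block fits, so these counts are not support for any member. SIRT4 had the fewest estimated reads of the members, and each group held 2 libraries.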

Other observations

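The genes whose pattern over the 12 libraries was most like that of SIRT4, chosen after its values were seen, were TRAFD1 (Pearson r 0.981), CNPY4 (0.970) and SMIM3 (0.967), and 38 genes exceeded 0.9 against 2950 for SIRT1. TRAFD1 is an interferon-inducible regulator of innate immune signalling. These genes have 52.2% to 52.4% GC, near the 51.1% of SIRT4. The correlations are descriptions over shared libraries.

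Other members also varied in transcript make-up. The coding transcripts of SIRT7 held 16.8% to 61.9% of its TPM, those of SIRT3 36.3% to 87.3% and those of SIRT6 56.9% to 79.3%, while SIRT1, SIRT4, NAMPT and NMNAT1 stayed at 91.5% or more in every library. For SIRT3, ENST00000532837.5, a transcript annotated for nonsense-mediated decay, took 8.27% to 58.2%.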
